A study of Mus musculus with 6 samples.

Results

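The 39 genes described here encode the bone morphogenetic protein (BMP) and growth differentiation factor (GDF) branch of signalling, from its ligands to the SMAD proteins and the ID genes that it switches on. They were chosen by gene name, and 38 of them are among the 28262 genes of the table, while *Gdf10* was not analysed here. The RNA was that of Sertoli cells of C57BL/6 mice aged 20 days, with 3 libraries from *Pa1F/F* testes, the control (PA1flox/flox in the labels), and 3 from *Amh-pa1-/-* testes, the knockout (PA1-/- in the labels). Both groups were untreated, and both started from floxed *Pa1* alleles, and mice that in addition carried a Cre recombinase under the *Amh* promoter, which deletes these alleles, were the knockout. That promoter is active in Sertoli cells, so other testicular cells left in a preparation would keep *Pa1*. PA1 is a nuclear protein of the MLL3/4 histone methyltransferase complexes, and the comparison asks how its loss changes transcription in Sertoli cells. Sertoli cells had been freed from seminiferous tubules with collagenase and hyaluronidase and kept in culture, which leaves room for other cells of the tubule wall and the interstitium. The sources used here do not say how many mice gave each library or whether the libraries of a group came from separate animals, although the study calls the samples biological replicates, so the p-values measure the spread between these libraries. The transcript of *Pa1* was not analysed here, so the genotypes rest on the labels.

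BMP and GDF ligands are secreted dimers that bring type I and type II receptor kinases together. The type I receptor phosphorylates SMAD proteins (SMAD1, SMAD5 and SMAD9 for most BMPs, SMAD2 and SMAD3 for activins, TGF-β and GDF11), which enter the nucleus with SMAD4. Secreted antagonists such as chordin, noggin and gremlin hold ligands away from their receptors, and SMAD6, SMAD7 and SMURF ubiquitin ligases shut the pathway down inside the cell. In the testis, members of this family are known to act between Sertoli cells and germ cells, and activin and inhibin are classical Sertoli cell products.

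Levels are given as CPM, the standard rescaling of counts to a common library size, here with edgeR's TMM factors, in the order of replicates 1, 2 and 3 of a genotype. Library totals lay between 13203757 and 16231443 counts, so that the floor of 3 counts corresponded to 0.185 to 0.230 CPM. *Pa1F/F* replicates 1 and 3 varied by 3.59% beyond counting noise and *Amh-pa1-/-* replicates 1 and 2 by 2.41%, against 18.4% to 22.2% for the other pairs within a genotype, so the spread within a genotype came largely from *Pa1F/F* replicate 2 and *Amh-pa1-/-* replicate 3. *Amh-pa1-/-* replicate 3 also stood apart in smooth muscle genes of peritubular myoid cells. All 6 listed myoid markers had reads, and the summed level of 5 of them (*Myh11*, *Des*, *Cnn1*, *Tagln* and *Actg2*) was 70.3, 49.4 and 62.9 CPM in *Pa1F/F* cells and 24.96, 19.9 and 221 CPM in *Amh-pa1-/-* cells, while *Acta2* was higher in every *Amh-pa1-/-* library than in any control. The Sertoli cell transcription factors *Sox9* and *Wt1* were abundant in every library (216 to 339 and 306 to 414 CPM), whereas the Sertoli cell marker *Rhox5* did not exceed 1.05 CPM. Of the 12 Sertoli cell markers 3 were lower at an adjusted p-value under 0.05 (*Gata4*, *Clu* and *Inha*), and the sum of all 12, most of it *Clu*, was 16795, 16566 and 16514 CPM in *Pa1F/F* libraries against 10082, 10225 and 12788 CPM in *Amh-pa1-/-* libraries. Macrophage markers summed to between 60.3 and 70.9 CPM in *Pa1F/F* cells and to between 10.7 and 12.5 CPM in *Amh-pa1-/-* cells, with 6 of 8 lower. Leydig cell markers summed to 859, 794 and 911 CPM in *Pa1F/F* libraries and to 165, 172 and 288 CPM in *Amh-pa1-/-* libraries, with 3 of 6 lower. Germ cell markers, of which 7 of 8 were listed, were low, with sums of 4.31, 3.62 and 5.56 CPM and 1.79, 2.53 and 5.59 CPM and 2 of them lower (*Ddx4* and *Kit*). The part of these cells in the calls described here was not tested. In bulk RNA, fewer cells of a type and less RNA per cell cannot be told apart.

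Low counts removed 4 of the 38 listed genes and left 34 for testing, a filter which a gene can pass through the genotype in which it is high. At an adjusted p-value under 0.05 (edgeR's quasi-likelihood test, adjusted after Benjamini and Hochberg over 14919 genes), 12 were lower and 1 was higher in *Amh-pa1-/-* cells. Among all genes tested, 17.1% were lower and 18.2% were higher, so the share of calls among the 34 genes (38.2%) was close to that of all genes (35.3%), while nearly all of the calls were in the lower direction. The lower genes were *Bmp5*, *Bmp6*, *Gdf11*, *Acvr1*, *Chrd*, *Bmp1*, *Bambi*, *Smad3*, *Smad6*, *Smurf1*, *Ski* and *Skil*, and the higher gene was *Bmp2*. With a log2 fold change of 1 or more in either direction required as well (called the fold threshold below), 5 were lower (*Bmp5*, *Bmp6*, *Gdf11*, *Chrd* and *Smad6*) and *Bmp2* was higher, against 6.56% and 5.44% of all genes. With edgeR's glmTreat, which tests against that fold itself, 0 were lower (4 at an unadjusted p-value under 0.05) and 1 was higher. The median log2 fold change over the 34 genes was -0.32, beside 0.0020 over all genes tested. Levels of the genotypes did not overlap for 15 genes that were lower and 4 that were higher in *Amh-pa1-/-* cells, together 19 of 34, beside 52.4% of all genes.

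**Figure D1:**
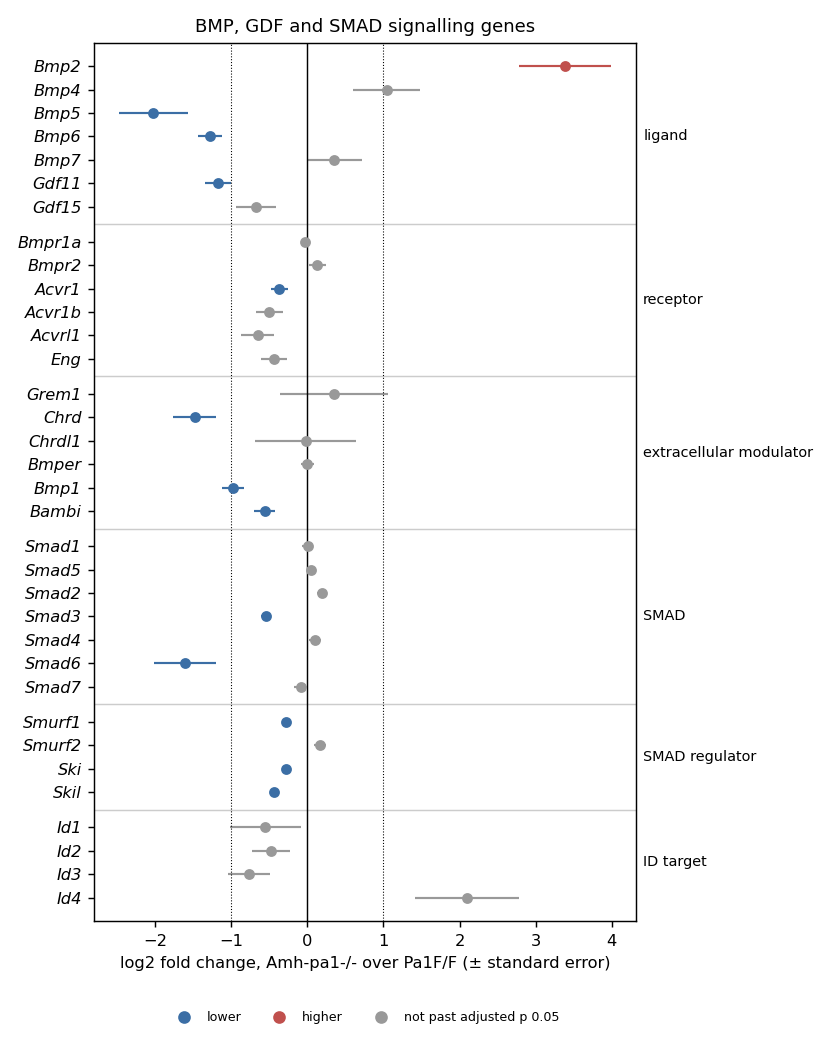
Log2 fold change (Amh-pa1-/- over Pa1F/F, horizontal axis) of the 34 tested genes by role, with the standard error of the edgeR fit as bars, zero as a solid line and the fold threshold of 1 as dotted lines. Blue genes were lower and red genes higher at an adjusted p-value under 0.05, and *Bmp2* at 3.38 is the single red gene.

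The calls depended on which libraries were taken as separate. Without *Amh-pa1-/-* replicate 3, 19 genes were lower and 4 were higher, beside 21.2% and 21.9% of all genes tested (43.1% in either direction), but the *Amh-pa1-/-* group then held only the close pair. With the counts of both close pairs summed, which leaves 2 libraries per genotype, *Bmp6*, *Bmp1* and *Smad3* were lower (edgeR, adjusted p = 0.0374, 0.0496 and 0.0444) and the other 10 calls were lost, while the share of all genes called fell from 35.3% to 8.66%.

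Promoter sequence is shown for the 5 lower genes past the fold threshold, so that the start regions of genes that moved together can be read side by side. Each run holds the 250 bases before the start of transcription in RefSeq on GRCm38.p6, 5′ to 3′ on the strand of the gene, with matches to the searched motifs in capitals. The motifs were TGANTCA (bound by AP-1, in which JUN takes part), GGCGCC (a GC-rich element bound by SMAD1 and SMAD5) and GTCTAGAC (a palindromic SMAD element), all of which read the same on both strands, and only GGCGCC was found in these genes, so no motifs overlapped.
*Bmp6*, chr13:38345466-38345715, plus strand: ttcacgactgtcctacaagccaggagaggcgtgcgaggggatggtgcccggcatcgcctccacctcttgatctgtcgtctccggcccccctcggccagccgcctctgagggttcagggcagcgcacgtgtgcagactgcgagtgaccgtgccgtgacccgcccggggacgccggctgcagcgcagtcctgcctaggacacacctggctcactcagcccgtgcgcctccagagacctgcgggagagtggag
*Bmp5*, chr9:75775115-75775364, plus strand: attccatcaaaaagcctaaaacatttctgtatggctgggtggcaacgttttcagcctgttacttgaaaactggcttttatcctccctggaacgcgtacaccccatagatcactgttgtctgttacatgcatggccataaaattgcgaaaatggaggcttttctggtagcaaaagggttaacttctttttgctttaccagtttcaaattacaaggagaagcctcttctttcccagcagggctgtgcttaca
*Gdf11*, chr10:128891719-128891968, minus strand: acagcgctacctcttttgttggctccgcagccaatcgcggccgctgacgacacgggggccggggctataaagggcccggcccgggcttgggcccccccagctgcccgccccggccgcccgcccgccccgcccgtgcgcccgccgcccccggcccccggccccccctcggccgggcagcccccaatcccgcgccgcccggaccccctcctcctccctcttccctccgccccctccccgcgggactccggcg
*Chrd*, chr16:20732877-20733126, plus strand: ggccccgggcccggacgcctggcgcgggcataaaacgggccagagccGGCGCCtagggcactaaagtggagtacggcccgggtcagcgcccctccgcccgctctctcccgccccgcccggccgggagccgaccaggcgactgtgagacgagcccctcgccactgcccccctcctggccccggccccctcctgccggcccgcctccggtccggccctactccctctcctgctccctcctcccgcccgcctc
*Smad6*, chr9:64022060-64022309, minus strand: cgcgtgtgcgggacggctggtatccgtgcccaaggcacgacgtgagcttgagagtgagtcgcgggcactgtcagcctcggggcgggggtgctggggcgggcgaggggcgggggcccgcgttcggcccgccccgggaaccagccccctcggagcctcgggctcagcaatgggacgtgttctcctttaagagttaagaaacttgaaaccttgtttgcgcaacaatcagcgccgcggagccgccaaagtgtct
The only capitals are those of GGCGCC in *Chrd*, 203 bases before the start. The start of *Bmp6* in RefSeq lies 609 bases inside the gene as the deposited table gives it, and those of the other 4 within 1 base. RefSeq promoters were matched by symbol for 26 of the 39 genes, in 31 windows. GGCGCC was found in 10 of the 31 windows (32.3%), of *Bmpr1a*, *Bmpr2*, *Chrd*, *Grem1*, *Id2*, *Id4*, *Ski*, *Smad5*, *Smad9* and *Smurf2*, beside 9.59% of all 32851 windows. The windows of these genes were also richer in G and C, with a median of 68.4% beside 52.4% for all windows. TGANTCA was in none of the 31 windows and in 6.75% of all windows, and GTCTAGAC in none and in 0.167%. A run of letters is not a binding site, and its absence here says only that it is not within these 250 bases.

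*Bmp2*, a ligand best known for inducing bone and also used widely in organ formation, rose most. Its level was 1.17, 0.658 and 1.71 CPM in *Pa1F/F* cells and 16.7, 16.01 and 4.22 CPM in *Amh-pa1-/-* cells, from counts of 19, 10 and 24 and of 252, 209 and 62. All 3 *Amh-pa1-/-* libraries lay above all *Pa1F/F* libraries, and replicate 3 was the lowest of them. The log2 fold change was 3.38 (SE 0.61, edgeR, adjusted p = 0.00618), a 10.4-fold rise, and it ranged from 3.10 to 3.80 with 1 library left out, past the threshold each time. With the close pairs summed its adjusted p-value was 0.0756 by the same edgeR test. The gene lies on chromosome 2 from 133552159 to 133562885 of GRCm38.

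*Bmp6* was the most abundant of the 6 BMP ligands chosen here in control cells. It encodes a ligand of the BMP5, BMP6 and BMP7 subgroup, known for its part in iron regulation in the liver. Its level was 9.92, 13.4 and 12.5 CPM in *Pa1F/F* cells and 5.44, 4.83 and 4.50 CPM in *Amh-pa1-/-* cells, with no overlap, and it fell 2.42-fold (log2 fold change -1.28, SE 0.16, edgeR, adjusted p = 0.00182). It lies on chromosome 13 from 38345107 to 38500302, and overlaps *Txndc5* on the opposite strand. The strand setting of the counting is not given in the sources used here, so reads could be shared, and *Txndc5* itself stood at 175 and 173 CPM on average in the *Pa1F/F* and *Amh-pa1-/-* libraries.

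*Bmp5*, of the same subgroup, fell from a low level. It had 0.863, 1.12 and 0.927 CPM in *Pa1F/F* cells and 0.266, 0.0766 and 0.341 CPM in *Amh-pa1-/-* cells, where the counts were 4, 1 and 5. The groups did not overlap, and the log2 fold change of -2.02 (SE 0.45, edgeR, adjusted p = 0.0141) is imprecise at such counts, ranging from -2.40 to -1.64 with 1 library left out. With counts of 14, 17 and 13 in *Pa1F/F* cells, *Bmp5* passed the filter only through the genotype in which it is high. *Bmp4* and *Bmp7* did not pass the test, with levels of 0.863, 0.395 and 0.785 against 1.33, 0.843 and 2.04 CPM for *Bmp4* and of 1.54, 0.658 and 1.28 against 1.33, 1.30 and 1.84 CPM for *Bmp7*. Both overlapped between the genotypes. *Bmp3*, a divergent ligand that opposes other BMPs, was not tested and did not exceed 0.263 CPM.

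Per kilobase of annotated exon, a scale that allows for gene length, the 6 BMP ligands summed to 3.53, 4.11 and 4.22 CPM in *Pa1F/F* cells and to 5.63, 5.18 and 2.95 CPM in *Amh-pa1-/-* cells. The exon lengths come from a later annotation than the one that was counted, so comparisons between genes are approximate. The summed level did not separate the genotypes, whereas the shares of *Bmp6* and *Bmp2* in it did not overlap between them. The shares are over these 6 ligands alone and would be smaller with *Gdf6* and *Bmp8b* counted in, which had 0.555 to 3.78 and 0.683 to 1.96 CPM per kilobase over the libraries. *Bmp6* gave 71.8, 83.4 and 75.4% of the summed level in *Pa1F/F* cells but 24.7, 23.8 and 38.9% in *Amh-pa1-/-* cells. *Bmp2* gave 7.16, 3.46 and 8.75% in *Pa1F/F* cells but 64.2, 66.7 and 30.9% in *Amh-pa1-/-* cells. Thus among these 6 ligands *Bmp2* led in *Amh-pa1-/-* replicates 1 and 2 and *Bmp6* still led in replicate 3, the library with the most myoid transcripts, whose part in this was not tested. With *Gdf6* and *Bmp8b* counted in, neither would lead in these libraries. *Gdf6* had 3.71 and 3.78 CPM per kilobase in replicates 1 and 2, beside 3.61 and 3.46 for *Bmp2*. *Bmp8b* had 1.42 in replicate 3, beside 1.15 for *Bmp6*.

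**Figure D2:**
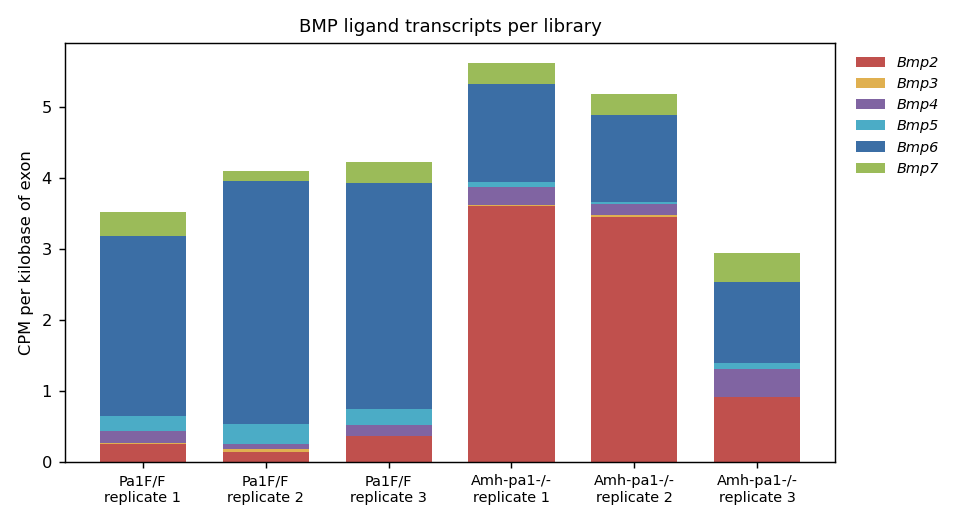
CPM per kilobase of annotated exon (vertical axis, linear) of 6 BMP ligands, stacked for each of the 6 libraries. *Bmp6* makes up most of every Pa1F/F bar, and *Bmp2* most of the bars of Amh-pa1-/- replicates 1 and 2.

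*Gdf11*, a ligand related to myostatin that signals through SMAD2 and SMAD3, was nearly invariant in control cells and fell. Its level was 11.3, 11.2 and 11.3 CPM in *Pa1F/F* cells and 3.98, 4.98 and 6.00 CPM in *Amh-pa1-/-* cells. The genotypes did not overlap, and the log2 fold change was -1.18 (SE 0.17, edgeR, adjusted p = 0.00279). *Gdf15*, a distant family member induced by cell stress, had 10.5, 12.9 and 8.63 CPM and 7.70, 8.04 and 4.43 CPM and did not pass the test (edgeR, adjusted p = 0.0877), although every *Amh-pa1-/-* library was lower.

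*Bmpr1a* and *Bmpr2* were the most abundant of the 7 receptors and co-receptors chosen here, and neither passed the test. *Bmpr1a*, a type I receptor of BMP2 and BMP4, had 203, 192 and 209.8 CPM in *Pa1F/F* cells and 195, 193 and 206 CPM in *Amh-pa1-/-* cells, a log2 difference of -0.028 (SE 0.057). *Bmpr2*, the type II receptor dedicated to BMPs, had 348, 310.4 and 355 CPM and 393, 409 and 311 CPM (log2 difference 0.13, SE 0.11). Both genes overlapped between the genotypes. Without *Amh-pa1-/-* replicate 3, *Bmpr2* was past the threshold as a higher gene (log2 fold change 0.25, edgeR, adjusted p = 0.0191).

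Among the remaining type I receptors, *Acvr1*, which transduces signals of BMP6 and BMP7, was lower. It had 63.1, 60.3 and 61.2 CPM in *Pa1F/F* cells and 43.9, 43.3 and 56.1 CPM in *Amh-pa1-/-* cells (log2 fold change -0.36, SE 0.11, edgeR, adjusted p = 0.0407). No library of the genotypes overlapped, but the call was lost in 5 of the 6 fits that left out 1 library, leaving the fit without *Amh-pa1-/-* replicate 3 (log2 fold change -0.49) as the exception.

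*Acvr1b*, the activin type I receptor, and *Acvrl1*, the type I receptor of BMP9 and BMP10 that is best known from blood vessels, lie next to each other on chromosome 15, 28.7 kb apart with no listed gene between them. *Acvr1b* had 37.1, 41.4 and 37.3 CPM and 22.7, 23.7 and 35.7 CPM, and *Acvrl1* had 27.2, 24.9 and 26.9 CPM and 14.8, 12.6 and 22.8 CPM. Every *Amh-pa1-/-* library was lower for both, with replicate 3 closest to the control, and neither passed the test (edgeR, adjusted p = 0.0712 and 0.0512). Without *Amh-pa1-/-* replicate 3, which leaves only the close pair in that group, both did, with log2 fold changes of -0.73 and -0.94 (edgeR, adjusted p = 0.000705 and 0.000580). Both also passed with DESeq2's Wald test (adjusted p = 0.0336 and 0.0147) and limma-voom (adjusted p = 0.0486 and 0.0314). *Acvrl1* alone also passed with DESeq2's scaling, with either other filter and with the replicate number as a block. Neither passed when any other library was left out, with library size alone as scaling (edgeR, adjusted p = 0.0925 and 0.0657) or with the close pairs summed (edgeR, adjusted p = 0.311 and 0.278).

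*Eng*, which encodes the co-receptor endoglin, had 18.2, 25.5 and 21.0 CPM and 15.002, 14.02 and 18.9 CPM and did not pass the test (edgeR, adjusted p = 0.0856). It overlaps *Fpgs* on the opposite strand, which had 14.1 and 12.2 CPM on average. Endothelial cells express *Acvrl1* and *Eng* strongly. Of 8 endothelial markers 7 were listed, and their summed level was 116, 122 and 117 CPM in *Pa1F/F* cells and 64.1, 64.7 and 101 CPM in *Amh-pa1-/-* cells. Most of that sum was *Cdh5*, and *Kdr* had 33.0 CPM in *Amh-pa1-/-* replicate 3 beside no more than 6.78 CPM in any other library. The markers *Pecam1*, *Tek*, *Egfl7* and *Emcn* each stayed at or under 5.33 CPM, with *Emcn* at no more than 3 counts in any library. *Cdh5* and *Pecam1* fell (log2 fold changes -0.87 and -1.73, edgeR, adjusted p = 0.000536 and 0.00918), whereas *Vwf* rose from a low level (log2 fold change 1.63, edgeR, adjusted p = 0.0339). The part of endothelial cells in the levels of *Acvrl1* and *Eng* was not tested. *Bmpr1b*, a further type I receptor, was not tested and did not exceed 0.886 CPM.

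In *Pa1F/F* cells the chosen receptors ranked among themselves, in CPM per kilobase of exon, as *Bmpr1a* with 26.0 ± 1.15 (SD, n = 3), *Bmpr2* with 18.7 ± 1.33, *Acvr1* with 9.21 ± 0.213, *Acvr1b* with 8.12 ± 0.513, *Acvrl1* with 3.48 ± 0.165 and *Eng* with 2.77 ± 0.474. Neighbours in that order were further apart than the SD of either, which does not cover error in the exon lengths. In *Amh-pa1-/-* cells the order was the same, with 7.15 ± 1.08 for *Acvr1* and 5.76 ± 1.52 for *Acvr1b* (SD, n = 3), which were then within the SD of *Acvr1b*, as were 2.21 ± 0.705 for *Acvrl1* and 2.05 ± 0.329 for *Eng* within that of *Acvrl1*.

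Among the genes for extracellular proteins, the transcripts of chordin and of a protease that cleaves it were both lower. *Chrd*, which encodes the BMP antagonist chordin, had 3.02, 4.08 and 5.14 CPM in *Pa1F/F* cells and 1.46, 1.76 and 1.16 CPM in *Amh-pa1-/-* cells, with no overlap. It fell 2.79-fold (log2 fold change -1.48, SE 0.28, edgeR, adjusted p = 0.00752) and lies on chromosome 16 from 20733127 to 20742384. *Bmp1* shares its name with the ligands but encodes a metalloprotease that trims procollagens and cleaves chordin. Its level was 277, 382 and 287 CPM in *Pa1F/F* cells and 146, 155 and 181 CPM in *Amh-pa1-/-* cells, a log2 fold change of -0.97 (SE 0.14, edgeR, adjusted p = 0.00300), just short of the fold threshold of 1.

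*Bambi*, a transmembrane pseudoreceptor that lacks a kinase and blocks type I receptors, also fell. It had 18.7, 14.7 and 15.9 CPM and 10.2, 12.3 and 11.1 CPM with no overlap (log2 fold change -0.56, SE 0.13, edgeR, adjusted p = 0.0171). The call was lost without *Pa1F/F* replicate 1 or without *Amh-pa1-/-* replicate 1 (edgeR, adjusted p = 0.0654 and 0.0623).

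The BMP-binding protein *Bmper*, by contrast, was at 65.8, 59.1 and 65.2 CPM and 64.3, 57.5 and 68.6 CPM, a log2 difference of 0.0033 with an SE of 0.086. The antagonist gremlin, encoded by *Grem1*, had 1.73, 2.11 and 2.07 CPM in *Pa1F/F* cells and 1.19, 0.690 and 5.59 CPM in *Amh-pa1-/-* cells, so that replicates 1 and 2 lay below and replicate 3 above every control library. Its log2 difference was 0.35 (SE 0.71) over all libraries and -1.03 without *Amh-pa1-/-* replicate 3, where it was past the threshold as a lower gene (edgeR, adjusted p = 0.0385). *Chrdl1*, a chordin-like antagonist, also had *Amh-pa1-/-* replicates 1 and 2 below and replicate 3 above every control library. It had 0.555, 0.790 and 0.999 CPM and 0.465, 0.230 and 1.57 CPM, from counts of 9, 12 and 14 and of 7, 3 and 23, and did not pass the test. *Nog*, which encodes noggin, was not tested, with no more than 3 counts in any library.

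**Figure D3:**
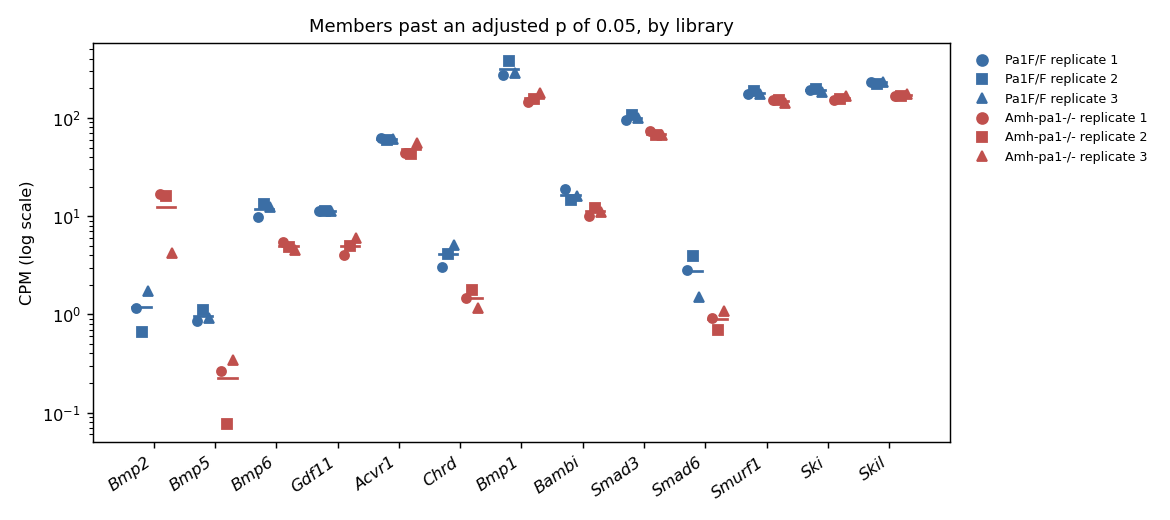
CPM (vertical axis, log scale) of the 13 genes past an adjusted p-value of 0.05, with a point for each library, its replicate number shown by its shape, and a line at the mean of each genotype. The red Amh-pa1-/- points lie above the blue Pa1F/F points for *Bmp2* and below them for the other 12 genes.

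The SMADs that carry the signal of BMP receptors did not pass the test. *Smad1* had 34.3, 35.2 and 33.9 CPM in *Pa1F/F* cells and 33.6, 33.9 and 36.4 CPM in *Amh-pa1-/-* cells (log2 difference 0.0075, SE 0.071). *Smad5* had 83.5, 83.0 and 80.6 CPM and 83.1, 84.7 and 89.0 CPM (log2 difference 0.056, SE 0.054). Their genotypes overlapped, and no difference beyond the spread of the libraries was detected. *Smad9*, the remaining BMP SMAD, was not tested and did not exceed 0.499 CPM.

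Of the SMADs used by activin, TGF-β and GDF11, *Smad3* fell and *Smad2* did not pass the test. *Smad3* had 94.5, 107 and 99.8 CPM in *Pa1F/F* cells and 72.9, 67.7 and 67.0 CPM in *Amh-pa1-/-* cells. Its SDs were small beside the gap between the genotypes, and the log2 fold change of -0.54 (SE 0.069, edgeR, adjusted p = 0.00181) lay between -0.58 and -0.49 with 1 library left out, past the threshold each time. *Smad2* had 99.8, 100.4 and 95.6 CPM and 114, 120.4 and 104 CPM, higher in every *Amh-pa1-/-* library and short of the threshold (log2 difference 0.19, SE 0.067, edgeR, adjusted p = 0.0665), which it passed without *Amh-pa1-/-* replicate 3 (adjusted p = 0.00776 by edgeR). *Smad4*, the shared partner of all of these, had 108, 102 and 107 CPM and 110.3, 103 and 126 CPM and overlapped between the genotypes.

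The inhibitory SMADs behaved unequally. *Smad6*, which preferentially restrains BMP signals and is itself a target of them, had 2.83, 3.95 and 1.498 CPM in *Pa1F/F* cells and 0.929, 0.690 and 1.09 CPM in *Amh-pa1-/-* cells, from counts of 46, 60 and 21 and of 14, 9 and 16. The genotypes did not overlap and the log2 fold change was -1.60 (SE 0.41, edgeR, adjusted p = 0.0223), but leaving out *Pa1F/F* replicate 1 or 2 or *Amh-pa1-/-* replicate 1 or 2 ended the call (edgeR, adjusted p from 0.0593 to 0.0757). *Smad7*, which restrains both branches, had 54.1, 56.6 and 48.1 CPM and 48.3, 46.9 and 54.6 CPM with overlap (log2 difference -0.084, SE 0.093). *Smad3* and *Smad6* are neighbours on chromosome 9, *Smad3* from 63646767 to 63757994 and *Smad6* from 63953076 to 64022059, 195 kb apart on the minus strand with 2 other listed genes between them.

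Per kilobase of exon, *Smad3* was the most abundant SMAD of *Pa1F/F* cells, with 17.3 ± 1.10 CPM (SD, n = 3) beside 14.5 ± 0.476 for *Smad4*, 11.2 ± 0.926 for *Smad7*, 10.7 ± 0.200 for *Smad5*, 8.77 ± 0.231 for *Smad2* and 3.76 ± 0.0718 for *Smad1*. *Smad7* and *Smad5* were within the SD of *Smad7*. In *Amh-pa1-/-* cells *Smad4* came first with 15.6 ± 1.57 CPM (SD, n = 3), and *Smad3* (11.9 ± 0.555), *Smad5* (11.1 ± 0.393), *Smad7* (10.5 ± 0.862) and *Smad2* (10.01 ± 0.752) stood close together below it.

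Of the 4 SMAD regulators, *Skil*, *Ski* and *Smurf1* fell, each by less than 1.5-fold and with no overlap between the genotypes, beside 17.1% of all genes that were lower. *Skil*, a co-repressor of SMADs, had 235, 224 and 233 CPM and 167, 167 and 176 CPM (log2 fold change -0.44, SE 0.050, edgeR, adjusted p = 0.00117). Its relative *Ski* had 194, 199 and 185 CPM and 153, 155 and 169 CPM (log2 fold change -0.27, SE 0.060, edgeR, adjusted p = 0.0126). *Smurf1*, a ubiquitin ligase that removes SMAD1, SMAD5 and type I receptors, had 177, 189 and 174 CPM and 152, 152 and 143 CPM (log2 fold change -0.27, SE 0.056, edgeR, adjusted p = 0.0100). The calls of *Skil* and *Smurf1* held in all 6 fits without 1 library, whereas that of *Ski* was lost in 3 of them. *Smurf2*, the related ligase, had 70.2, 67.4 and 72.2 CPM and 72.8, 77.3 and 86.0 CPM, higher in every *Amh-pa1-/-* library and not past the threshold (log2 difference 0.17, edgeR, adjusted p = 0.126).

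The ID genes encode helix-loop-helix proteins that cannot bind DNA and are the classical direct targets of BMP SMADs. No ID gene passed the edgeR test over the 6 libraries, although 2 of the 4 had an unadjusted p-value under 0.05 and 2 passed with DESeq2's Wald test (limma-voom called 0). *Id1* had 9.24, 4.41 and 9.34 CPM in *Pa1F/F* cells and 3.39, 3.29 and 8.99 CPM in *Amh-pa1-/-* cells. *Id2* had 15.3, 14.9 and 11.3 CPM and 7.63, 8.43 and 13.9 CPM, and *Id3* had 17.3, 11.98 and 17.7 CPM and 6.24, 8.89 and 12.5 CPM. In all 3 genes *Amh-pa1-/-* replicates 1 and 2 lay below every *Pa1F/F* library and replicate 3 lay within their range. *Id4* ran the other way, with 1.23, 0.658 and 1.07 CPM in *Pa1F/F* cells and 2.12, 1.84 and 8.72 CPM in *Amh-pa1-/-* cells, every *Amh-pa1-/-* library being above every control and replicate 3 far above the rest.

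Without *Amh-pa1-/-* replicate 3 all 4 ID genes were past the threshold, as were 43.1% of all genes in that fit, with log2 fold changes of -1.19 for *Id1*, -0.79 for *Id2*, -1.05 for *Id3* and 1.002 for *Id4* (edgeR, adjusted p = 0.0302, 0.00829, 0.00947 and 0.0449). The same library held the highest sum of the 5 myoid markers. Its summed level of 6 interstitial fibroblast markers, *Col1a1* and *Col3a1* foremost, was 2316 CPM, within the range of the *Pa1F/F* libraries (2072, 2499 and 2245), while *Amh-pa1-/-* replicates 1 and 2 had 1261 and 1246. The part of such cells in the levels of the ID genes and of *Grem1* was not tested.

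**Figure D4:**
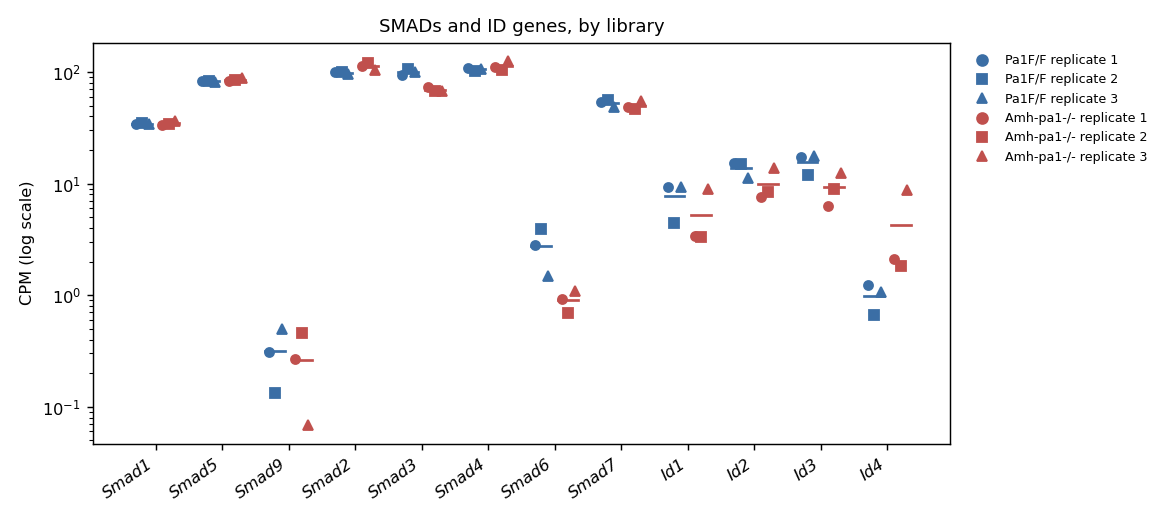
CPM (vertical axis, log scale) of the 8 SMAD and 4 ID genes in each library, with the replicate number shown by the shape of the point and a line at the mean of each genotype. *Smad3* and *Smad6* separate by genotype downwards, the genotypes overlap within *Smad1* and within *Smad5*, and Amh-pa1-/- replicate 3 departs from the other red points in the ID genes.

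The pathway holds further genes, of which a list of 56 was drawn up by role. Of these 51 were listed in the table, 34 were tested, and 10 were lower and 8 higher at an adjusted p-value under 0.05 in the edgeR test, beside the 35.3% of all genes that were called in either direction. Of these calls 3 lower and 3 higher ones passed the fold threshold as well, beside 6.56% and 5.44% of all genes. With the close pairs summed, 2 genes of the list were lower and 1 was higher in the edgeR test, beside 8.66% of all genes called.

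Among the secreted and membrane proteins of that list, *Nbl1*, which encodes the BMP antagonist DAN, had 203, 162 and 183 CPM in *Pa1F/F* cells and 67.8, 65.3 and 76.5 CPM in *Amh-pa1-/-* cells (log2 fold change -1.39, edgeR, adjusted p = 0.000248). *Kcp*, a chordin-like protein that enhances BMP signals, had 4.68, 6.19 and 4.35 CPM and 1.59, 2.22 and 2.998 CPM (log2 fold change -1.16, edgeR, adjusted p = 0.0180). Both were lower in every *Amh-pa1-/-* library. *Crim1*, a membrane protein with chordin-like repeats that binds BMPs, was the most abundant of the 6, with 520.3, 385 and 540.1 CPM and 1175, 1145 and 899 CPM, and it rose (log2 fold change 1.16, edgeR, adjusted p = 0.00246). *Tll1*, a protease that cleaves chordin as the product of *Bmp1* does, rose from 0.739, 0.724 and 0.927 CPM to 2.46, 1.92 and 2.73 CPM (log2 fold change 1.57, edgeR, adjusted p = 0.00433).

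*Bmp8b*, a ligand known to be required for the maintenance of mouse spermatogenesis, rose from 4.01, 5.86 and 4.35 CPM to 11.5, 10.1 and 8.31 CPM (log2 fold change 1.07, edgeR, adjusted p = 0.00757). *Zfp423*, a zinc finger protein that partners SMADs on BMP target genes, had the largest fall of the list, from 13.4, 9.88 and 12.3 CPM to 3.32, 2.76 and 3.13 CPM (log2 fold change -1.95, edgeR, adjusted p = 0.000488), with no overlap. Of the SMAD regulators in the list, 6 of 13 were lower and 3 were higher, beside 17.1% and 18.2% of all genes. Of 8 further receptors and co-receptors 6 were tested, and 33.3% of these were called, beside 35.3% of all genes. The calls were *Acvr2a*, which rose, and *Neo1*, which fell, both by less than 1.5-fold (these 2 were singled out after their values were seen).

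**Figure D5:**
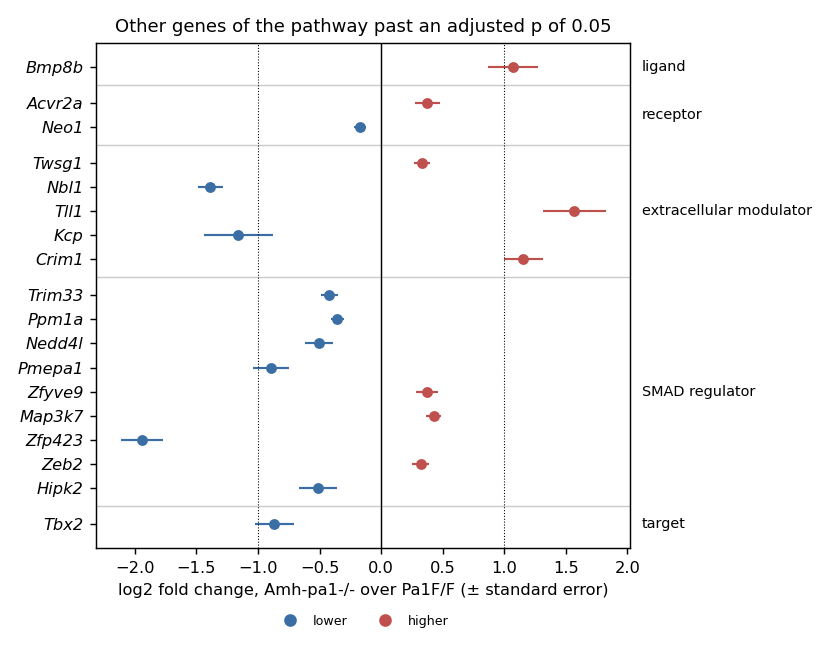
Log2 fold change (Amh-pa1-/- over Pa1F/F, horizontal axis) of the further pathway genes that passed an adjusted p-value of 0.05, by role, with the standard error of the edgeR fit as bars, zero as a solid line and the fold threshold of 1 as dotted lines. The 10 blue genes were lower and the 8 red genes higher in Amh-pa1-/- cells.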

How the data were processed

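RNA-seq of 6 Sertoli cell libraries was analysed, 3 *Pa1F/F* and 3 *Amh-pa1-/-*, grouped by the genotype in the labels. Per the labels and the study's methods, the authors aligned reads to GRCm38 with HISAT2 2.1.0 and deposited raw counts per gene made with HTSeq 0.6.0, without pooling libraries. The deposited table also holds the authors' own comparison (a mean signal over libraries, a fold change ratio, its log2 value and p-values), none of which was used. In R 4.3.3, edgeR 4.0.16 kept 14919 of 28262 genes with filterByExpr (minimum count 10, minimum total 15), scaled libraries by TMM and tested genotype by quasi-likelihood (glmQLFit, glmQLFTest, two-sided) with Benjamini-Hochberg adjustment over all genes tested. The fold threshold is a log2 fold change of 1 or more in either direction, from the study's methods, which used DEGseq in place of edgeR. The fit was tested on simulated data. DESeq2 1.42.0, limma-voom (limma 3.58.1), other scalings and filters, summing of close libraries and leaving out each library were the alternatives.

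The genes, lists and tests were chosen with earlier results of these data known. Values per library are given for those of the 39 genes past the threshold, for the tested SMADs and type I and type II receptors, and for further genes where libraries disagreed. Other pathway genes were named where past both thresholds, apart from *Acvr2a*, *Neo1*, *Gdf6* and *Amhr2*, which were named after their values were seen. Coordinates are those of the deposited table. Exon lengths come from GENCODE on GRCm39, not from the annotation that was counted, so orders of genes in CPM per kilobase are approximate. Library totals of 13203757 to 16231443 counts put 3 counts at 0.185 to 0.230 CPM, which covers counting error only. The counts of *Gdf10* and *Pa1* were not analysed here.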

Additional observations from a re-analysis of the deposited data

How the results depend on the processing

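Over 34 genes and 14 alternative settings, 415 of 471 values stayed on their side of the threshold, 30 lost the call, 25 gained it in the same direction and 1 passed the threshold in the other direction (*Grem1*, log2 fold change -1.03 without *Amh-pa1-/-* replicate 3, where leaving out other libraries gave up to 0.80). Values of the other sign than over all 6 libraries numbered 19, of *Bmpr1a*, *Bmper*, *Chrdl1*, *Grem1* and *Smad1*, none of them called over all 6 libraries. With 1 library left out, 8 to 19 of the genes were lower and 1 to 4 higher, 4 to 9 lower and 1 to 2 higher past the fold threshold as well, and 6 to 15 and 6 to 10 of the other pathway genes were lower and higher, while 3450 to 6617 of all genes were called and 1466 to 2076 passed the fold threshold. With the close pairs summed, 3 were lower and 0 higher (edgeR, 2 higher at an unadjusted p-value under 0.05), 1 lower and 0 higher past the fold threshold, 2 and 1 of the other pathway genes were lower and higher, and 1382 and 883 of all genes passed. The genes called higher numbered 2 with library size alone as scaling, with DESeq2's Wald test and without a filter, and the last 2 settings gave 2 higher past the fold threshold. Lower genes past the fold threshold numbered 3 when each library had to reach 10 counts, and 0 with glmTreat, which tests against the threshold itself (4 at an unadjusted p-value under 0.05, and 538 of all genes called). With the replicate number as a block, 9 were lower, 3 of them past the fold threshold, and 3802 of all genes were called, but the samples share only a number, since the same-number correlations of deviations were 0.108, -0.164 and -0.179 and 0 of 6 libraries correlated best with its own number. Apart from the settings that leave out or sum libraries, the causes were not tested. Low counts limit *Bmp5*, *Smad6*, *Bmp4* and *Chrdl1*, and the *Pa1F/F* levels of *Bmp2* and *Id4*. The genes *Bmp3*, *Bmpr1b*, *Nog* and *Smad9* were too low to test.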

Other observations

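Of the further pathway genes, 2 that were picked after their values were seen separated *Amh-pa1-/-* replicate 3 from replicates 1 and 2. *Gdf6*, a BMP ligand of joint and skeletal development, had 4.07, 2.11 and 5.78 CPM in *Pa1F/F* cells and 13.2, 13.5 and 1.98 CPM in *Amh-pa1-/-* cells, so that replicates 1 and 2 lay above every control library and replicate 3 below. *Amhr2*, the receptor of anti-Müllerian hormone, had 86.5, 113 and 81.2 CPM and 49.6, 58.6 and 164 CPM, in the opposite order. No cause was tested for these values, and the differences between replicates of a genotype have no test.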
